A study of Mus musculus with 9 samples.

Results

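The cytosolic ribosomal protein genes encode the proteins of the ribosome that translates nuclear messages. They were taken here by gene symbol: the Rpl and Rps genes with a number, the Rplp genes and Rpsa, without the S6 kinase genes (Rps6k) and without symbols marked as pseudogenes. The rule gave 87 of the 18639 genes in the files. Of these, 77 encode structural proteins, 46 of the large subunit and 31 of the small one. The other 10 are close copies of such genes, plus Rps19bp1, which encodes a protein that binds RPS19 and is no part of the ribosome.

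Bulk RNA was sequenced from brain tumour tissue of mice at day 5 post resection, in 3 groups of 3 libraries. The tumours of all groups were of CT2A, a murine glioma line labelled as GBM. One group was given sECM only, which is the matrix alone, without cells. Another was given GFP-TC, the control cells, and the last was given ThTC, CT2A cells secreting the cytokines IFNβ (interferon-beta) and GM-CSF. The mouse strain and age, what drives the 2 factors in the cells, and whether tumours were pooled are not given in the sources used here. No label ties a library to its own animal, so the p-values here reflect the spread among the 9 libraries alone, which may be technical. Each library is given as TPM (transcript abundance per library total), which corrects for gene length and adds up to the same total in every library. The read depth behind a value is unknown beyond the 4.47 Gb per sample that the labels state.

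As background, a ribosome holds one copy of nearly every ribosomal protein, the stalk proteins RPLP1 and RPLP2 being an exception, and surplus protein that is not built into a subunit is degraded. Most of these genes are single, highly transcribed genes with many processed pseudogenes. Their messages are known to begin with a cytosine inside a run of pyrimidines, the TOP motif, through which mTORC1 and LARP1 set how much they are translated. Growing tumour cells are known for high ribosome production, while much of the brain tissue around a tumour is made of cells that do not divide.

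The start of the transcript is shown for members with a long pyrimidine run and for members that the later comparisons turn on. RefSeq start windows (GRCm38.p6) were found for 67 of the 87 members and 57 of the 77 structural ones. For 49 of these 57 the window lay at the outer start of the gene, and for the others at a start inside it. Of the windows shown, those of Rpl7a and Rps2 are at such inner starts. Each sequence below is read 5′ to 3′ and holds the 15 bases before the annotated start and the first 15 bases from it, with the longest pyrimidine run in capitals. The windows are Rpl7a (chr2:26910792-26910821, plus strand), Rpl27a (chr7:109519180-109519209, plus), Rpl35 (chr2:39005117-39005146, minus), Rpl15 (chr14:18270972-18271001, minus), Rplp2 (chr7:141447636-141447665, plus), Rps6 (chr4:86857353-86857382, minus) and Rps24 (chr14:24490663-24490692, plus). Those without a run of 8 are Rps2 (chr17:24720048-24720077, plus), Rpl41 (chr10:128549154-128549183, minus), Rpl9 (chr5:65391417-65391446, minus) and Rpl36al (chr12:69184053-69184082, minus).
Rpl7a: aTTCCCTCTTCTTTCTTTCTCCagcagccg
Rpl27a: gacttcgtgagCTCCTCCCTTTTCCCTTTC
Rpl35: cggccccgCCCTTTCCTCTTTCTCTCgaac
Rpl15: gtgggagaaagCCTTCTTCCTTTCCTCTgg
Rplp2: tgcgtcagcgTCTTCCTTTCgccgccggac
Rps6: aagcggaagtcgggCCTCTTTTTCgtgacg
Rps24: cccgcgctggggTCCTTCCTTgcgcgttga
Rps2: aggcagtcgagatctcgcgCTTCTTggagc
Rpl41: cacacgggccggCTCggaagtgacgacacc
Rpl9: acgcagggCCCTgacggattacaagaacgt
Rpl36al: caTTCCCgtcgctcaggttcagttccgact

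A pyrimidine run of 8 or more bases lay in this 30-base window in 23 of 57 structural members (40.35%), against 11.93% of the 27025 genes with a window. The annotated start itself was a C in 35.09% of the members and 16.17% of all genes. In the longer window of 250 bases before to 50 after the start, the ETS-type string CCGGAAG, read on both strands, was present in 40.35% of members against 9.073% of all genes. The YY1-type string AAGATGG was present in 15.79% against 6.435%, the TATA box string TATAAA in 10.53% against 14.19%, and the E box string CACGTG in 8.772% against 7.16%. None of these 4 strings contains another, and a match is a description of letters, not of a bound factor. The 23 members with a run of 8 or more had a median level of 1657 TPM and the 34 others 1512 TPM. Both sets varied alike between libraries, with a median SD of 0.22 on the log2 scale in each. The windows rest on annotated starts, and the starts used in these libraries were not measured. A window without such a run therefore does not show that a message lacks the TOP motif.

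The 87 genes together made up 11.1% to 16.2% of each library, and 48 of the 100 most abundant genes were among them. In the sECM only group their summed level was 145640, 155514 and 131131 TPM in libraries 1, 2 and 3. It was 161996, 113185 and 111384 TPM in the GFP-TC group and 161331, 146901 and 118953 TPM in the ThTC group. The highest and the lowest sum thus lay in the same group, GFP-TC, and the 3 groups overlapped. Group means were 144095 ± 12264 TPM for sECM only, 128855 ± 28715 TPM for GFP-TC and 142395 ± 21545 TPM for ThTC (SD, n = 3), and the differences between these means were smaller than the SD of GFP-TC.

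**Figure D1:**
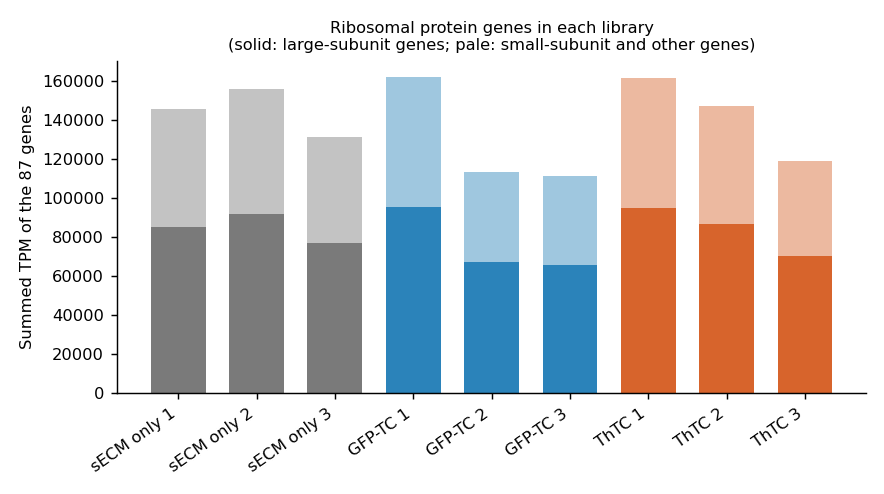
Summed TPM of the 87 ribosomal protein genes in each of the 9 libraries (bars from 0, coloured by group; solid part, large-subunit genes; pale part, small-subunit and other genes). GFP-TC 1 and ThTC 1 stand highest, at 161996 and 161331 TPM, and GFP-TC 2, GFP-TC 3 and ThTC 3 lowest.

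The balance between the subunits varied far less than the sum. Large-subunit genes summed to 1.42 to 1.47 times the small-subunit genes in every library, with group means of 1.44 ± 0.0176 for sECM only, 1.45 ± 0.0149 for GFP-TC and 1.46 ± 0.0121 for ThTC (SD, n = 3). Library GFP-TC 2, with 113185 TPM in all, had a ratio of 1.47, and GFP-TC 1, with 161996 TPM, had 1.44. Both subunits were therefore lower together in the low libraries. Since Rps2 alone holds a large part of the small-subunit sum, the ratio without it was 1.65, 1.67 and 1.65 in sECM only, GFP-TC and ThTC.

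Levels of the single members, which TPM puts on one scale per length, ran over more than 2 orders of magnitude among the structural genes, from Rps6 at a mean of 25.8 TPM to Rps2 at 7029 TPM. Of the 87 members, 59 averaged 1000 TPM or more and 78 averaged 100 TPM or more. Of the 9 below 100 TPM, 8 are copies or Rps19bp1, and Rps6 is the structural one. The median structural gene stood at 1575 TPM.

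**Figure D2:**
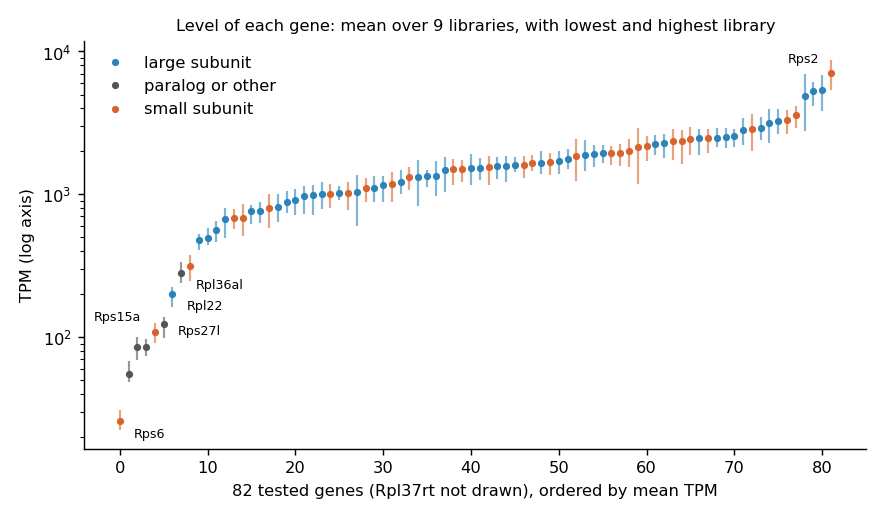
Level of 82 members in TPM on a log axis, ordered by mean over the 9 libraries (points, coloured by class), with lines from the lowest to the highest library. The median structural gene is at 1575 TPM, Rps2 is highest at 7029 TPM, and Rps6, at 25.8 TPM, is the lowest gene drawn.

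The stalk genes were among the most abundant. Rplp0, whose protein anchors the stalk that recruits the translation factors, stood at 6012, 6042 and 5287 TPM in sECM only, 6795, 3861 and 4135 TPM in GFP-TC and 6377, 5314 and 4341 TPM in ThTC. Rplp1, a mobile stalk protein, averaged 5302 TPM and ranged from 4150 to 6153 TPM. Rplp2, its partner in the stalk dimer, averaged 2463 TPM and ranged from 1871 to 2855 TPM. All 3 stalk genes were lowest in GFP-TC 2.

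Among the other large-subunit genes, Rpl41 was the most abundant and also the one that varied most. It encodes a very short, basic peptide. Its level was 4913, 5326 and 4087 TPM in sECM only, 6967, 3284 and 2796 TPM in GFP-TC and 6476, 6107 and 4308 TPM in ThTC, a 2.49-fold range. GFP-TC held its highest and its 2 lowest values. Rpl4, a core protein that lines the exit tunnel, was one of the steadiest at 1426 to 1825 TPM, and Rpl30 ranged 1.26-fold, from 916 to 1152 TPM, the narrowest range of the 77. Rpl5 and Rpl11, which with 5S rRNA form the particle that binds MDM2, averaged 1003 and 1526 TPM. Rpl13a, whose protein is also known from the GAIT complex that silences some interferon-induced messages, averaged 1350 TPM and ranged from 981 to 1703 TPM.

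Among the small-subunit genes, Rps2, a protein near the messenger RNA entry site, was the most abundant member in all 9 libraries and took 4.33% to 5.51% of the summed level. It stood at 7486, 8305 and 7212 TPM in sECM only, 8733, 5683 and 6135 TPM in GFP-TC and 7986, 6368 and 5350 TPM in ThTC. Rpsa, also known as a laminin receptor precursor, averaged 3308 TPM. Rps19, the gene most often mutated in Diamond-Blackfan anaemia, averaged 1026 TPM, Rps3, a protein of the entry channel, 808 TPM, and Rps27a, made as a fusion with ubiquitin, 682 TPM.

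The next most abundant members were Rps26 at a mean of 3577 TPM, a protein at the exit of the messenger channel, Rpl12 at 3246 TPM, which lies at the base of the stalk, and Rpl32 at 3140 TPM. Below 500 TPM were 6 structural genes: Rpl21 (498 TPM), Rpl37 (476 TPM), Rps20 (315 TPM), Rpl22 (200 TPM), Rps15a (109 TPM) and Rps6. Rps15a was at 110, 117 and 102 TPM in sECM only, 117, 96.2 and 90.8 TPM in GFP-TC and 127, 126 and 93.4 TPM in ThTC. Rpl22, which is dispensable for translation in many mouse cells and acts in T cell development, was at 198, 219 and 182 TPM in sECM only, 221, 206 and 164 TPM in GFP-TC and 226, 208 and 181 TPM in ThTC. Both were low on the family's scale in every library, and for both the lowest value was that of GFP-TC 3. The longest transcript annotated for Rps15a has 5179 bases and that for Rpl22 has 2051, against a median of 937 for the structural genes. Which transcript length the TPM values were divided by is not given in the sources used here.

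Rps6, the protein that S6 kinase phosphorylates downstream of mTORC1, stood apart at 22.3, 28.5 and 24.2 TPM in sECM only, 25.02, 29.4 and 24.1 TPM in GFP-TC and 24.2, 30.8 and 23.5 TPM in ThTC. Its level did not follow the libraries' order for the other members: GFP-TC 2, where most were low, held its second highest value. In the GENCODE vM21 transcripts, 84.6% of the 50-base stretches of Rps6 also occur in transcripts of other genes, 14 of them pseudogenes. Rpl35 and Rpl5 share 95.1% and 85.4% of theirs and stood at 2819 and 1003 TPM. How reads shared with copies were counted is not given in the sources used here, so the low value of Rps6 is uncertain as a level of its message, and its cause was not tested.

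Shared sequence bears on most of the family. All but 1 of the 77 structural genes shared at least one 50-base stretch with a pseudogene. The share of stretches found on either strand in transcripts of any other gene, pseudogene or not, was 38.5% at the median. It reached 95.1% for Rpl35 and was over 50% for 27 genes. Over the 77 genes the share had a Spearman correlation of 0.13 with the mean level, and transcript length one of -0.15, both given as descriptions over genes of the same libraries. Absolute levels of single members are therefore less certain than their differences between libraries that were processed in the same way.

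The copies were expressed at a fraction of their parent genes. Rpl22l1 was at 40.1% to 46.0% of Rpl22, at means of 85.1 and 200 TPM. Rpl36al was at 31.0% to 44.3% of Rpl36a, at means of 281 and 762 TPM. Rps27l, a copy known as a p53 target, was at 4.70% to 6.97% of Rps27, and Rpl7l1, a copy found in pre-ribosomes, at 4.90% to 6.50% of Rpl7. The copies known from testis or muscle were close to absent from the values: Rpl39l reached at most 0.80 TPM, Rpl3l, a muscle gene, 0.18 TPM and Rpl10l, a testis gene, 0.11 TPM, and each was listed at 0 in 5 or more libraries. Rpl32l was listed at 0 in all but 2 libraries, and Rpl37rt ranged from 0 in ThTC 3 to 9.51 TPM in GFP-TC 2. Rpl10l, Rpl3l, Rpl32l and Rpl39l lay below 1 TPM in every library and were not tested, which left 83 tested members, among them all 77 structural ones.

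Across the 9 libraries the structural genes moved as a block. Each was correlated with the mean of the other 76 over the 9 libraries on the log2(TPM + 1) scale. Pearson's r had a median of 0.95, was over 0.9 for 58 genes and over 0.8 for 72. These libraries share one fixed total, so a change in other abundant RNA also moves all members together. The 5 genes below 0.8 were Rps6 (0.085), Rpl30 (0.62), Rpl4 (0.70), Rpl23 (0.73) and Rps24 (0.79).

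**Figure D3:**
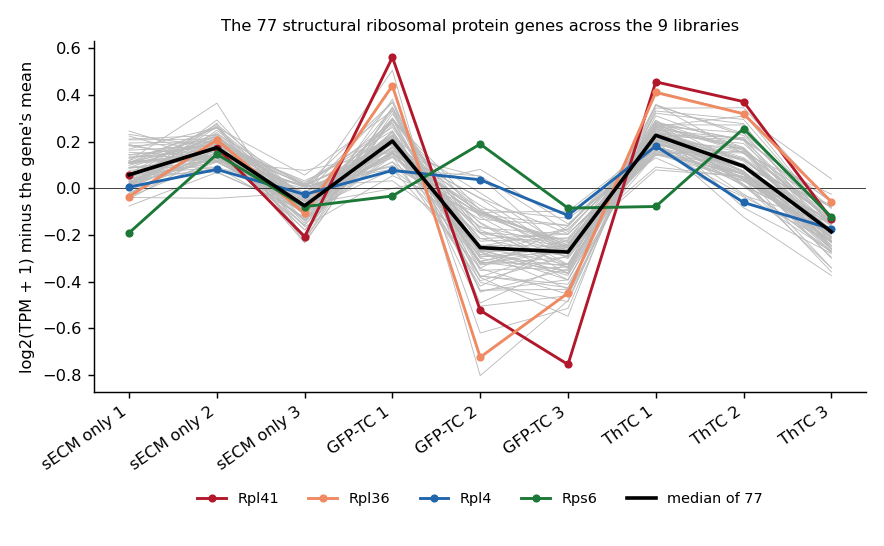
log2(TPM + 1) of each of the 77 structural genes minus its own mean over the 9 libraries (thin lines, one per gene; the libraries have no order and lines only join a gene's values). The median (black) is highest in GFP-TC 1, sECM only 2 and ThTC 1 and lowest in GFP-TC 2, GFP-TC 3 and ThTC 3, with wide swings for Rpl41 and Rpl36, small ones for Rpl4 and a different course for Rps6.

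GFP-TC 2, GFP-TC 3 and ThTC 3 were low for most of the family. GFP-TC 3 was the lowest library for 36 of the 77 genes, GFP-TC 2 for 22 and ThTC 3 for 17, and together they were the 3 lowest libraries for 51 genes. ThTC 1 was the highest for 37, GFP-TC 1 for 22 and sECM only 2 for 14. For all 77 genes the range within at least one group was larger than the range of the 3 group means. The median range within a group on the log2 scale was 0.25 in sECM only, 0.52 in GFP-TC and 0.41 in ThTC, against 0.19 between group means. A mean of 3 libraries varies less than single libraries do, so these ranges cannot tell whether groups differ less than libraries.

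Genes differed in how far they followed this pattern. The median gene ranged 1.48-fold over the libraries. After Rpl41, the widest SDs among structural genes were those of Rps14, a platform protein of the small subunit, Rpl36 and Rpl9. Rps14 was at 2437, 2249 and 2011 TPM in sECM only, 2919, 1178 and 1472 TPM in GFP-TC and 2630, 2421 and 1851 TPM in ThTC. Rpl36 was at 976, 1155 and 928 TPM in sECM only, 1357, 605 and 732 TPM in GFP-TC and 1330, 1248 and 961 TPM in ThTC. Both were highest in GFP-TC 1 and lowest in GFP-TC 2. Rpl9, which ranged 2.08-fold, was also lowest in GFP-TC 2, at 834 TPM, and highest in GFP-TC 1, at 1733 TPM. At the other end, Rps23, a decoding-centre protein, ranged from 1452 to 1880 TPM and Rpl37 from 405 to 529 TPM.

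Markers of brain cells moved with part of this pattern. The summed level of 8 neuron markers, all present in the files and none at 0 in every library, ran from 204 to 359 TPM in sECM only. It was 87.1, 345 and 1188 TPM in GFP-TC 1, 2 and 3 and 132, 273 and 1417 TPM in ThTC 1, 2 and 3. The 8 oligodendrocyte markers ran from 320 to 714 TPM in sECM only and were 178, 547 and 1997 TPM in GFP-TC and 159, 645 and 2416 TPM in ThTC. GFP-TC 3 and ThTC 3, which were low in ribosomal protein genes, had the most neuron and oligodendrocyte RNA, and GFP-TC 1 and ThTC 1, which were high, the least. GFP-TC 2 had marker sums of 345 and 547 TPM and a ribosomal protein sum of 113185 TPM, and sECM only 1 had 359 and 714 TPM and 145640 TPM. In bulk tissue, fewer cells of a type and less RNA per cell cannot be told apart. The part of brain tissue in the ribosomal protein levels was not tested. With a covariate for these brain markers in the limma fit, the members' median for ThTC against GFP-TC was 0.15 (log2), 24 of 83 passed an unadjusted p under 0.05, all higher (28.9%, against 5.57% of all genes higher and 18.6% lower), and the smallest adjusted p was 0.139. That fit called 0 members in any comparison. For ThTC against sECM only, 3 of 83 members passed the unadjusted p, all higher (3.61%, against 4.03% of all genes higher and 7.3% lower). For GFP-TC against sECM only, 1 of 83 passed it, on the lower side, against 1.72% of all genes higher and 1.19% lower.

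**Figure D4:**
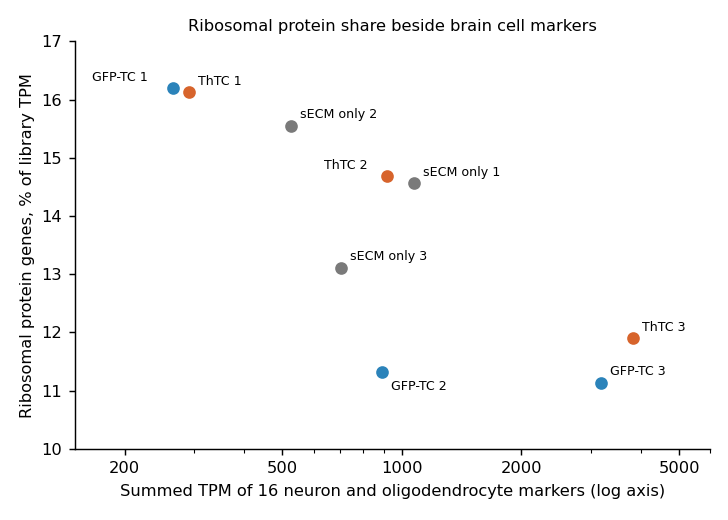
Ribosomal protein genes as a percentage of library TPM (vertical axis, cut at 10%) against the summed TPM of 16 neuron and oligodendrocyte markers (log axis), one point per library, coloured by group. GFP-TC 1 and ThTC 1 lie at the upper left, GFP-TC 3 and ThTC 3 at the lower right, and GFP-TC 2 is low at an intermediate marker level.

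The other marker lists were read in the same way. Cycling-cell genes (10 of 10 present) summed to 1371 to 1528 TPM in sECM only, 1268 to 1497 TPM in GFP-TC and 1172 to 1445 TPM in ThTC, and were lowest in ThTC 3 and GFP-TC 3. Monocyte and macrophage genes (8 of 8) summed to 868 to 1088, 613 to 1233 and 1188 to 2258 TPM, and fibroblast and pericyte genes (8 of 8) to 1319 to 1635, 1405 to 1872 and 1026 to 1403 TPM. The highest red blood cell sum (6 of 6) was that of GFP-TC 2, at 1206 TPM against 147 to 999 TPM in the other 8 libraries. T cell genes (7 of 8) summed to 6.59 TPM in GFP-TC 1 and 22.3 to 88.2 TPM elsewhere, and astrocyte genes (8 of 8) spanned 255 TPM (GFP-TC 1) to 1558 TPM (ThTC 3). Their part in the ribosomal protein levels was not tested.

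The comparison of ThTC with GFP-TC sets cells that secrete both factors against control cells. Most ribosomal protein genes had a higher mean with ThTC, by little: 75 of the 83 tested members had a positive and 8 a negative log2 fold change, with a median of 0.13, a 1.10-fold difference. Over all 13829 genes tested, 33.8% had a positive value and the median was -0.10, so the members' median lay 0.24 above it. The large-subunit median was 0.12 and the small-subunit median 0.18. limma, a moderated linear model fitted over all tested genes and 9 libraries with Benjamini-Hochberg adjustment, called 0 members at an adjusted p under 0.05, and 0% of all genes.

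Without adjustment, 2 members passed p under 0.05 higher with ThTC (2.41% of 83, against 2.03% of all genes) and 0 lower, against 12.9% of all genes. The groups did not overlap for 0 members in either direction, where 2.2% of all genes lay wholly higher and 16.9% wholly lower with ThTC. These counts turned on single libraries. Without GFP-TC 1, 30 of 83 members passed that p, all higher (36.1%, against 3.41% of all genes higher and 18.9% lower), with a smallest limma adjusted p of 0.157. Without ThTC 3, 8 members passed it, all higher (9.64%, against 1.16% of all genes higher and 1521 of 13829 lower). Without GFP-TC 2, GFP-TC 3 or ThTC 1, 0 members did, against 5.57%, 14.8% and 15.4% of all genes in either direction. Without ThTC 2, 1 of 83 members passed it, on the lower side, against 0.745% of all genes higher and 4.89% lower. In none of these fits did limma call a member.

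The 2 members were Rps24 and Rpl36al. Rps24, whose protein is needed to process the small-subunit rRNA precursor (chr14:24490678-24496960, GRCm38.p6), was at 1401, 1444 and 1198 TPM in the ThTC libraries and 1232, 1019 and 887 TPM in the GFP-TC libraries. The ThTC libraries were higher by number, but ThTC 3 lay below GFP-TC 1, so the groups overlapped. The log2 fold change, on the log2(TPM + 1) scale, was 0.37 ± 0.14 (SE; limma adjusted p = 0.316), and 0.51 and 0.31 under median-of-ratios and quantile scaling. Relative to the median structural gene of the same library, Rps24 lay at -0.39, -0.24 and -0.22 with ThTC, -0.52, -0.36 and -0.51 with GFP-TC and -0.55, -0.47 and -0.47 with sECM only (log2 differences).

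Rpl36al (chr12:69182734-69184067), a copy of Rpl36a, was at 323, 334 and 279 TPM in ThTC, 300, 240 and 244 TPM in GFP-TC and 274, 272 and 266 TPM in sECM only. Its log2 fold change was 0.26 ± 0.11 against GFP-TC (SE; limma adjusted p = 0.325) and 0.20 ± 0.11 against sECM only (limma adjusted p = 0.687). ThTC lay wholly above sECM only and overlapped with GFP-TC 1. Of the 50-base stretches of Rpl36al, 22.1% occur in other transcripts. Its parent Rpl36a had log2 fold changes of 0.07 ± 0.15 and -0.08 ± 0.15.

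Among the next members by p were Rpl13a (0.37 ± 0.19) and Rpl35a (0.32 ± 0.17; log2 fold change ± SE, limma adjusted p of 0.381 and 0.392), both of the large subunit. Larger but less steady differences were those of Rpl36 (0.47 ± 0.28), Rpl41 (0.47 ± 0.33), Rpl9 (0.44 ± 0.26) and Rps14 (0.41 ± 0.31), the genes that also varied most within groups. On the side of lower means with ThTC were Rpl37rt (-1.11 ± 0.74), which is at single-digit TPM, Rpl7l1 (-0.08 ± 0.11), Rps2 (-0.05 ± 0.22), Rpl29 (-0.02 ± 0.14) and Rpl4 (-0.02 ± 0.12). The stalk genes had 0.15 ± 0.24 for Rplp0, 0.16 ± 0.17 for Rplp1 and 0.16 ± 0.18 for Rplp2. Rps6 had -0.01 ± 0.14. None of these passed the adjustment.

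The size of this difference varied with the libraries compared. Between libraries of the same number, 46 of 83 members were higher with ThTC for number 1 with a median of 0.0070, 77 for number 2 with a median of 0.32, and 58 for number 3 with a median of 0.099 (log2). Without GFP-TC 1 the group median was 0.29 and without ThTC 3 it was 0.26. Without GFP-TC 2, GFP-TC 3 or ThTC 1 it was 0.074, 0.048 and 0.044. In a fit of these 6 libraries with a replicate block, limma called 8 genes of all and still 0 members, with a smallest member adjusted p of 0.206 and 12 members at an unadjusted p under 0.05, all higher (14.5%, against 5.81% of all genes higher and 11.5% lower). Scaling by median-of-ratios moved the median of all genes from -0.10 to 0.020 and that of the members to 0.27, with 82 of 83 positive, whereas quantile scaling gave 0.050, with 53 of 83 positive.

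**Figure D5:**
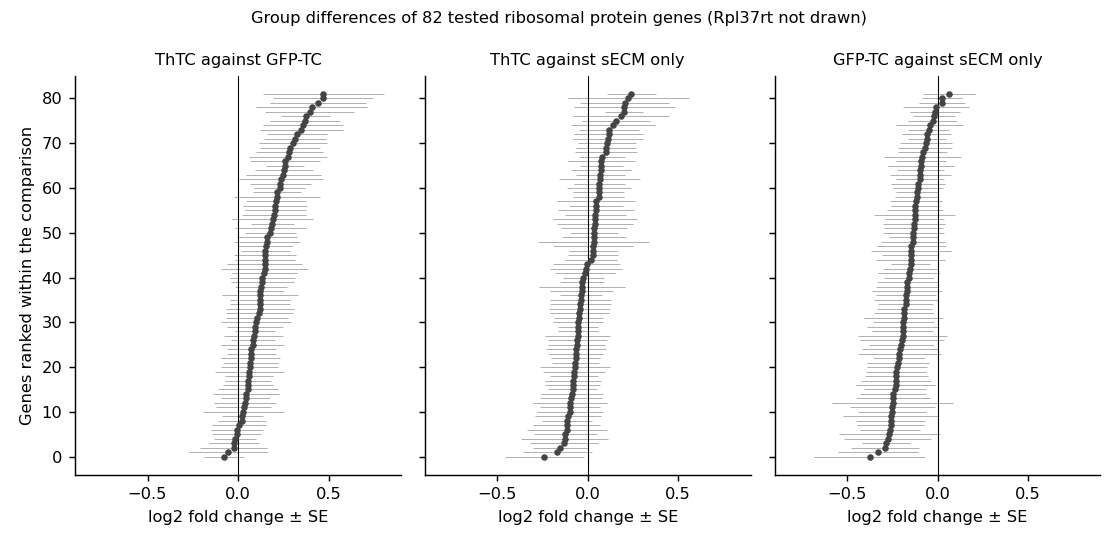
log2 fold change ± SE of 82 tested members (Rpl37rt is not drawn), ranked within each of the 3 comparisons. Points lie mostly right of 0 for ThTC against GFP-TC (75 of 83 positive with all members), on both sides for ThTC against sECM only (38 positive) and left of 0 for GFP-TC against sECM only (4 positive), and 0 members were called by limma in any panel.

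The comparison of ThTC with sECM only showed no common direction. Of the 83 members, 38 had a positive and 45 a negative log2 fold change, with a median of -0.026 against -0.032 for all genes. limma called 0 members and 0% of all genes, and 0 members passed an unadjusted p under 0.05 in either direction, against 1.54% of all genes higher and 5.36% lower. Rpl36al was the 1 member whose groups did not overlap, higher with ThTC, where 5.03% of all genes were wholly higher and 12.1% wholly lower. After Rpl36al, the smallest p belonged to Rps24 (0.24 ± 0.14), and Rpl11 (0.16 ± 0.19), Rps18 (0.20 ± 0.25) and Rpl36 (0.20 ± 0.28) followed among positive values.

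On the negative side were Rps2 (-0.24 ± 0.22), Rpl28 (-0.15 ± 0.15), the laminin receptor gene Rpsa (-0.17 ± 0.19), Rpl37rt (-0.61 ± 0.74) and Rpl29 (-0.11 ± 0.14). Rpl28 was at 3137, 3458 and 2805 TPM with sECM only and 3078, 2990 and 2416 TPM with ThTC. Relative to the median structural gene of its library, it lay 0.75 to 0.81 above with ThTC and 0.89 to 1.03 above with sECM only (log2). With GFP-TC it lay 0.84 to 1.03 above. Rpl28 was not alone in this. On the same scale Rps2 and Rpsa were also wholly lower with ThTC than with sECM only, and Rps24 was wholly higher. How many members lay apart on this scale was not counted. The direction of the members' median turned positive without ThTC 3 (0.10), without sECM only 2 (0.040), with median-of-ratios scaling (0.012) and with a covariate for brain markers (0.047), so no direction can be given for the family.

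The comparison of GFP-TC with sECM only had most members on the negative side. Means were lower with GFP-TC for 79 of 83 members and higher for 4, with a median of -0.16 against 0.077 for all genes, of which 71.8% had a positive value. Under median-of-ratios and quantile scaling the all-gene median was -0.014 and -0.0050, with 54.1% and 51.6% of all genes lower. The members' median was -0.25 and -0.088 there, with 82 and 72 of 83 lower. limma called 0 members and 0% of all genes. At an unadjusted p under 0.05 there were 0 members in either direction, against 0.499% of all genes higher and 0.434% lower. That count also turned on 1 library: without GFP-TC 1, 32 of 83 members passed that p, all lower (38.6%, against 7.06% of all genes higher and 2.44% lower), with a smallest limma adjusted p of 0.498. The groups overlapped for all 83 members, where 3.15% of all genes were wholly higher and 1.08% wholly lower with GFP-TC. This comparison shares the GFP-TC libraries with the first, and GFP-TC 2 and GFP-TC 3 entered both.

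The smallest p was that of Rps29, a zinc-finger protein of the small subunit, at 1749, 1625 and 1509 TPM with sECM only and 1531, 1264 and 1226 TPM with GFP-TC. GFP-TC 1 lay above the lowest sECM only library, and the log2 fold change was -0.28 ± 0.13 (SE; limma adjusted p = 0.997). Rplp1 (-0.26 ± 0.17), Rpl39 (-0.29 ± 0.19), Rps27 (-0.33 ± 0.22) and Rps13 (-0.21 ± 0.14) followed. The 4 positive members were Rpl37rt (0.51 ± 0.74), Rps6 (0.07 ± 0.14), Rpl7l1 (0.02 ± 0.11) and Rps23 (0.02 ± 0.13), none larger than its SE. Without GFP-TC 1 the members' median was -0.32, and without GFP-TC 3 it was -0.064.

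Genes that work with the ribosome were read beside it from fixed lists, and limma called 0 genes of any list in any comparison. Fau, which encodes RPS30 fused to a ubiquitin-like protein, and Rack1, a scaffold on the small subunit, had values like the members. Their log2 fold changes for ThTC against GFP-TC were 0.20 ± 0.20 and 0.24 ± 0.20, and for GFP-TC against sECM only -0.16 ± 0.20 and -0.26 ± 0.20. Elongation factors were positive for 8 of 10 for ThTC against GFP-TC, with a median of 0.095. Eef1a1, the factor that brings aminoacyl-tRNA, had 0.15 ± 0.19. Eef2, which had the smallest p among them, lay on the lower side at -0.18 ± 0.13.

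The factors that build ribosomes lay on the other side. Of 51 genes for rRNA processing and ribosome assembly, 48 had a lower and 3 a higher mean with ThTC than with GFP-TC, with a median of -0.20, and 10 passed an unadjusted p under 0.05, all lower (19.6%). Of all genes, 66.2% had a lower mean in that comparison and 12.9% were lower at that p. The same counts, 48 lower and 3 higher, held against sECM only, with a median of -0.16 and 4 lower at that p (7.84%), where 55.6% of all genes had a lower mean and 5.36% were lower at that p. Utp15, a factor of the small-subunit processome, averaged 25.2 ± 2.04 TPM in ThTC and 31.9 ± 0.886 TPM in GFP-TC libraries (SD, n = 3), a log2 fold change of -0.33 ± 0.10 (limma adjusted p = 0.316). Ddx18, a helicase of assembly, had -0.29 ± 0.10. Scaling weakened the first of these splits: 30 of 51 were lower under median-of-ratios scaling (median -0.062) and 38 under quantile scaling (median -0.11), against all-gene medians of 0.020 and -0.033. Against sECM only, 47 of 51 were lower under either scaling.

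RNA polymerase I genes had lower means with ThTC than with GFP-TC for 12 of 17 (70.6%, near the 66.2% of all genes; median -0.17), with Ubtf, the factor that opens rRNA genes, at -0.31 ± 0.10 and Rrn3, the initiation factor, at -0.25 ± 0.07, but for 9 of 17 under either scaling. Regulators around mTORC1, LARP1 and MYC were lower for 18 of 20 tested (median -0.26; 15 and 17 under median-of-ratios and quantile scaling), with Eif4ebp2, a repressor of cap-dependent initiation, at -0.42 ± 0.14 and Tsc2, an inhibitor of mTORC1, at -0.33 ± 0.12. Initiation factors were lower for 25 of 37 (67.6%, likewise near all genes; median -0.051), but for 8 under median-of-ratios scaling, whose median was 0.082, and 19 under quantile scaling. The smallest p among them was that of Eif4g1 at -0.34 ± 0.10. Genes of ribosomal stress and p53 were lower for 9 of 10 (median -0.23) under all 3 scalings, with Zfp598, a sensor of collided ribosomes, at -0.45 ± 0.12. The smallest limma adjusted p in each of these 4 lists was 0.316.

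Mitochondrial ribosomal proteins, which form a separate ribosome, had higher means with ThTC for 55 of 78 against GFP-TC (median 0.083; 74 and 68 under median-of-ratios and quantile scaling) and for 52 of 78 against sECM only (median 0.063). Mrps16 averaged 59.9 ± 1.02 TPM in ThTC, 43.3 ± 4.05 TPM in GFP-TC and 47.1 ± 4.42 TPM in sECM only libraries (SD, n = 3). Its log2 fold change was 0.47 ± 0.10 against GFP-TC (limma adjusted p = 0.316). Their sum spanned 4990 to 6416 TPM over the libraries. The 10 other genes whose messages are known to begin with a pyrimidine tract split evenly, 5 higher and 5 lower with ThTC than with GFP-TC, with Pabpc1, the poly(A)-binding protein gene, at -0.27 ± 0.11.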

How the data were processed

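Bulk RNA was sequenced from 9 libraries in 3 groups of 3, taken from the treatment labels. The deposited files hold 1 TPM value per gene and library, per the file headers. The submitters' processing notes name HISAT, GRCm38.p6 and mm10. Tool versions, the quantifier, annotation and handling of multi-mapped reads are not given in the sources used here. Because TPM keeps no depth, no count model or counting interval was used. Within a fixed total, abundant genes move the rest.

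Values were analysed as log2(TPM + 1), which understates changes of low genes. Testing covered 13829 genes that reached 1 TPM in 3 or more libraries, in limma 3.58.1 under R 4.3.3 (intensity trend, 9 libraries in one fit, adjusted within each of 3 comparisons, threshold 0.05). The steps were tested on simulated data with independent noise per gene and planted changes larger than nearly all differences reported here. That test does not show how small shifts of members that move together are detected. Start windows came from RefSeq (GRCm38.p6), and shared 50-base stretches from GENCODE vM21 transcripts, where 85 of the 87 members were matched. Figures were drawn with matplotlib 3.10.9 in Python 3.11.15. Members, lists and the rule for named genes were chosen with earlier results of these data known. The rule took, per comparison and direction, the 5 members of smallest p, the 5 of highest and lowest mean, the 5 of largest and smallest SD, the pairs of a gene and its copy, and fixed members. Rpl35, Rpl23, Rpl12, Rpl32, Rpl21, Rps20, Rps15a and those whose start is shown were named after their values were seen, as was Rps19bp1. Some genes that the rule takes are not reported here. In the other lists the 2 genes of smallest p were taken.

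To check pairing, each library's deviations from its group mean were correlated between libraries of the same number. For GFP-TC with ThTC this gave 0.74, 0.12 and 0.87, although no label says what a number stands for. Their libraries of the same number were therefore also compared as pairs and with a replicate block. The main fit used no pairing, and it gave the p-values and SEs above wherever no other fit is named. Correlations of sECM only were negative with GFP-TC (-0.53, -0.14, -0.19) and of mixed sign with ThTC (-0.55, 0.28, -0.21), and no pairs were made. Alternatives covered pseudocounts, filters, scaling, the block, a brain-marker covariate, sample weights and leaving out libraries.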

Additional observations from a re-analysis of the deposited data

How the results depend on the processing

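Over 22 settings per comparison, limma called 0 members in 21 settings for ThTC against GFP-TC, in 21 for ThTC against sECM only and in all 22 for GFP-TC against sECM only. The exception was sample quality weights. That limma fit called 45 of 83 members for ThTC against GFP-TC, all higher, and 5866 of 13829 genes. For ThTC against sECM only it called 2 of 83 members, higher, and 2582 of 13829 genes. At its unadjusted p under 0.05, 68.7% of members passed in the first comparison, all higher. Of all genes, 8.9% were higher and 42.9% lower there. In the second, 9.64% of members passed, against 11.2% of all genes higher and 25.8% lower. The fit gave ThTC 2 a weight of 8.61 and GFP-TC 1 one of 0.223, so it rests mostly on few libraries. The members' median ranged from 0.044 to 0.29 for ThTC against GFP-TC, from -0.11 to 0.10 for ThTC against sECM only and from -0.32 to -0.064 for GFP-TC against sECM only, against a pooled SD of 0.21 (log2) of the mean member level within groups. Leaving out 1 library called 0 members in any comparison. With the replicate block in the 6 libraries of a comparison the smallest member adjusted p was 0.206, 0.613 and 0.999 for these 3 comparisons, and the block changed no call of a member. Of 924 refits of the 42 named and tested members per comparison, 65, 67 and 44 changed the sign of a log2 fold change. Without Rps2 the large-to-small ratio was 1.65, 1.67 and 1.65 for sECM only, GFP-TC and ThTC, and structural genes alone gave a median of 0.14, -0.026 and -0.17, an alternative chosen after seeing the data.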
